A study of Mus musculus and Homo sapiens with 8 samples.

Results

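The constitutive proteasome subunits are the genes named PSMA, PSMB, PSMC or PSMD with a number, without the interferon-inducible PSMB8, PSMB9 and PSMB10. A member had a detection p-value, the share of negative control beads at least as bright, under 0.01 on at least 1 array of its species. By that rule 26 of the 30854 rows of the mouse table and 33 of the 34694 genes of the human table (47 of 47323 probes) were members, 35 genes in either species and 24 in both. RNA was measured on 8 Illumina bead arrays. From mouse thymus (CD-1 background, age 2.5 weeks), 2 arrays were labelled TRAF6 null and came from mice given ionising radiation (15 Gy, with 10 h stated as the duration), 2 were wild type with the same irradiation, and 1 was wild type and unirradiated. The other 3 held RNA of H1299, a human lung cancer cell line that lacks p53, transfected with p53 K24R (a lysine changed to arginine), p53 wild type or empty vector, 1 array each. No unirradiated array was labelled TRAF6 null, and whether paired arrays hold different mice is not given, so the p-values reflect array-to-array spread that may be technical.

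The proteasome degrades proteins that carry ubiquitin chains, and TRAF6 is itself a ubiquitin ligase, which acts in NF-kB signalling. The 20S core of the proteasome is a barrel in which PSMA subunits form the outer, gating rings and PSMB subunits the inner rings with the cutting sites. The 19S cap recognises and unfolds substrates: PSMC subunits are its ATPase motor, and PSMD subunits form scaffold, receptors and lid, while PSMD5, PSMD9 and PSMD10 are chaperones of cap assembly. In thymus, cortical epithelial cells replace PSMB5 with PSMB11 in their own form of the core, and the peptides it cuts serve the positive selection of T cells. When proteasome capacity falls short, the transcription factor encoded by NFE2L1 raises subunit genes together.

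Of the 36 subunit names on the mouse array, 10 had no row under the threshold. PSMA1, PSMA3, PSMA6, PSMA8, PSMC6 and PSMD3 did not exceed the 99th percentile of the estimated negative controls on any array. PSMB3 and PSMD8 had signals of 2859 to 5062 and 1642 to 2318 and were still left out. Their detection p-values, which read as averages over a gene's probes, were at lowest 0.04734 and 0.01932. PSMD5 and PSMD11 were left out likewise. Just outside the threshold lay PSMD11, with a lowest detection p of 0.01391, and the member nearest to it from inside was PSMB2, with 0.00095. In the human table, PSMA7, PSMA8 and PSMB11 had no passing probe. All 26 mouse members passed on at least 2 arrays and were tested, PSMB2 and PSMB11 on 3 arrays each and the other 24 on all 5.

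Upstream windows are shown for the members with the largest called differences between the irradiated groups that had an entry in the RefSeq promoter table (GRCm38.p6, 250 bases before to 50 after the start), and for the thymus-restricted PSMB11. Of the 26 mouse members, 21 had an entry. The first 4 belong to genes higher on arrays labelled TRAF6 null, PSMD13 was lower there, and PSMB11 was lower on all irradiated arrays. Each window is printed on the gene's strand, and capitals mark TGACNNNGC (the type of site the NFE2L1 product binds), the CCAAT box, and the ETS-type motif CCGGAAG, on either strand.
Psmd9, chr5:123227940-123228239, plus strand: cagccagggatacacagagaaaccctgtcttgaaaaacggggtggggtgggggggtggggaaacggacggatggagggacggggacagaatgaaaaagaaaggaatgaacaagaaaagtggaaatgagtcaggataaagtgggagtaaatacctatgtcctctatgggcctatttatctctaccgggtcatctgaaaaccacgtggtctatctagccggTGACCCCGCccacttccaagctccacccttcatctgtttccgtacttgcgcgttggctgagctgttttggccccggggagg
Psmd2, chr16:20651402-20651701, plus strand: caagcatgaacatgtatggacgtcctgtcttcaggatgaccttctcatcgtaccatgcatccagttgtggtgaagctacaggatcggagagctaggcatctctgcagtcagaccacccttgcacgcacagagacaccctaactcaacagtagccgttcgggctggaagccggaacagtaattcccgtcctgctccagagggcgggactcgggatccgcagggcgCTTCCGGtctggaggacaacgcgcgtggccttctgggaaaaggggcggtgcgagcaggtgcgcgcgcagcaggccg
Psmd6, chr14:14120896-14121195, minus strand: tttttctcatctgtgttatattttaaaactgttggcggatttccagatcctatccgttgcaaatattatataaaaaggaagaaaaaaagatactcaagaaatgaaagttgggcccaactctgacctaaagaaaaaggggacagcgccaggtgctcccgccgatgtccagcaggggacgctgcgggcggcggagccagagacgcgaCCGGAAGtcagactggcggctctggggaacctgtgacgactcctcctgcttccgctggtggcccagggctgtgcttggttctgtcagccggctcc
Psmd12, chr11:107479278-107479577, plus strand: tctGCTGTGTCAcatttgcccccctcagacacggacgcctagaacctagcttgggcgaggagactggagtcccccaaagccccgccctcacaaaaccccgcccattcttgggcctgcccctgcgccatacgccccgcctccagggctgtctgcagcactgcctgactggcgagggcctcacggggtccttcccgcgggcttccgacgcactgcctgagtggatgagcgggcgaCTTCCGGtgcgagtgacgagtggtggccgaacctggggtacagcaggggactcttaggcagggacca
Psmd13, chr7:140882144-140882443, plus strand: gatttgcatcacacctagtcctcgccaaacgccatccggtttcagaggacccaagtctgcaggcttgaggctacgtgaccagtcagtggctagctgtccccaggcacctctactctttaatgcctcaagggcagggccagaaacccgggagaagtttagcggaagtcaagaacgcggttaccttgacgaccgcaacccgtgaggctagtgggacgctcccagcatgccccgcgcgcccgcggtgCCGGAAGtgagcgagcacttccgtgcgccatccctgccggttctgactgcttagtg
Psmb11, chr14:54625060-54625359, plus strand: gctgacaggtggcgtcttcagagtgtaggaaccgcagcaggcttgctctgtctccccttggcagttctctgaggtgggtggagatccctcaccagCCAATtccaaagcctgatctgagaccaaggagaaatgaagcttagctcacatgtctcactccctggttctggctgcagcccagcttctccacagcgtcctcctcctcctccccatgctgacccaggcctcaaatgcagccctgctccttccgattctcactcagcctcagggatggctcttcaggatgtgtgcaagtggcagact

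Over 9 motifs searched, with member values already known, TGACNNNGC was in 4 of the 21 member windows (19%) and in 14% of the 27025 genes with a window. The CCAAT box was in 8 (38.1%, against 41.1%), CCGGAAG in 7 (33.3%, against 9.93%), and the SP1-type GGGCGG in 13 (61.9%, against 38.2%). TATAAA was in 3 (14.3%, against 15.7%) and the YY1-type AAGATGGC in 3 (14.3%, against 3.19%). The cAMP response element TGACGTCA was in 0 (against 2.03%), the strict form TGACTCAGC, which is a case of the first motif, was in 0 (against 0.503%), and the nuclear respiratory factor motif was in 1 (4.76%, against 1.07%). Of the 7 members called between the irradiated groups that had a window, 5 held CCGGAAG and 5 held GGGCGG. TGACNNNGC was in 2 of them, the CCAAT box in 2, TATAAA in 1 and each other motif in 0. Those called include higher and lower members, and a link between motif and call was not tested. These matches describe letters in a window and say nothing of binding.

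The label check on the mouse arrays was the TRAF6 row, which had signals of 537 and 449 on the arrays labelled TRAF6 null, 327 and 315 on irradiated wild type and 372 without irradiation. The arrays labelled TRAF6 null thus exceeded irradiated wild type by 2.18-fold (limma adjusted p = 0.0122). The table does not give where its probes lie, so the row checks nothing, and every direction below rests on the labels. Across the 11563 rows tested, the arrays correlated at 0.971 within the TRAF6 null pair, 0.988 within the irradiated wild-type pair and 0.865 to 0.886 between groups. Cell markers moved with the groups. The summed signal of 17 T-lineage genes, 1 of them (CD8A) not above background on any array, was 31617 and 24252 on the arrays labelled TRAF6 null, 32281 and 25492 on irradiated wild type and 82561 without irradiation. For 8 medullary epithelial genes it was 3229 and 7837 on the arrays labelled TRAF6 null, 20474 and 20226 on irradiated wild type and 7107 without irradiation, and for 12 macrophage genes 21128 and 29469 on the arrays labelled TRAF6 null, 23621 and 21371 on irradiated wild type and 10915 without irradiation. Between the irradiated groups, the adipocyte list had 4 of 4 tested genes higher with the TRAF6 null label (median 2.50, with FABP4, PLIN1 and LEP not above background on any array), summing to 5835 and 9794 there, against 3811 and 3866. The neutrophil list had 5 of 7 higher (median 1.85), at 9624 and 15225 against 9313 and 8542, and the erythroid list 3 of 6 higher (median 1.71), at 53758 and 52379.5 against 26880 and 45166. For fibroblast genes 4 of 5 were higher and 1 lower (median 1.44, COL1A2 and POSTN not above background), at 7384 and 9281 against 3356.5 and 3267. Dendritic genes had 4 of 5 lower (median -1.15, ITGAX and FLT3 not above background), at 8538.5 and 9668 against 14116 and 13774. B cell genes gave 1 higher of 3 and endothelial genes 1 higher and 2 lower of 7. In these bulk samples, fewer cells of a type and less RNA per cell cannot be told apart, and the part of these shifts in the subunits' differences was not tested.

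TRAF6 null and wild-type thymus, both irradiated, were compared first. Of 26 members, 7 were higher and 2 lower (limma, Benjamini-Hochberg adjusted p under 0.05 over all rows tested), which is 26.9% and 7.69% of the members. Over all tested rows, 20.8% were higher and 22.9% lower, 43.7% in all, and 11 members and 6221 of all rows had an unadjusted p under 0.05. The median log2 difference of the members was 0.23, against -0.03 over all rows, and their differences had an SD of 0.55, against 1.01. Members were mostly bright: over the 5 arrays their median log2 signal was 11.60 to 11.72, against 7.53 to 7.55 over the rows tested. Shares and SDs of members and of all rows, here and below, thus compare genes of unlike brightness. Higher members were PSMB7, PSMC1, PSMD2, PSMD6, PSMD9, PSMD12 and PSMD14. PSMB1 and PSMD13 were lower. Without one or the other irradiated wild-type array no member passed, and 9.88% and 5.34% of all rows passed, with 5 and 4 members and 36% and 33.9% of all rows at an unadjusted p under 0.05. Scaling to the array medians in place of quantile normalization shifted the median of all rows to -0.19 and called 9 members higher and 1 lower (46.5% of all rows called), and the authors' own scaled table, which has no background correction or quantile step (median of all rows -0.28), called 3 higher and 2 lower (48.8% of all rows).

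Irradiated against unirradiated wild-type thymus was the second comparison. Here 1 member was higher (PSMD4) and 4 were lower (PSMB7, PSMB11, PSMD2 and PSMD6), 3.85% and 15.4% of the members. Over all rows 18.6% were higher and 17.5% lower, 36.2% in all, and 9 members and 5709 of all rows had an unadjusted p under 0.05. The members' median was -0.26, against 0.05 over all rows. Again 0 members passed when either irradiated wild-type array was dropped, as did 0% of all rows, with 4 and 5 members and 33.2% and 30.3% of all rows at an unadjusted p under 0.05. With either array labelled TRAF6 null dropped, which enters this contrast only through the shared spread, 9 members passed, 2 higher and 7 lower, as did 55.2% of all rows. Median scaling called 0 higher and 7 lower, and 39.4% of all rows.

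Arrays labelled TRAF6 null after irradiation were last set against the unirradiated wild-type array, where 0 members were higher and 1 was lower (PSMB11). In this comparison 13.6% of all rows were higher and 15% lower, 28.6% in all, and 2 members and 5063 of all rows had an unadjusted p under 0.05. The members' median was -0.05, against -0.03 over all rows. Without replicate 2 of the pair labelled TRAF6 null, 3 members and 39.8% of all rows passed, PSMD4 and PSMD9 higher and PSMB11 lower. Without replicate 1, PSMB11 and PSMD13 passed, both lower, and 43.5% of all rows. The 3 comparisons share arrays, so their values are given side by side and not as independent results. Genotype and irradiation cannot be told apart in this last comparison, which changes both.

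**Figure D1:**
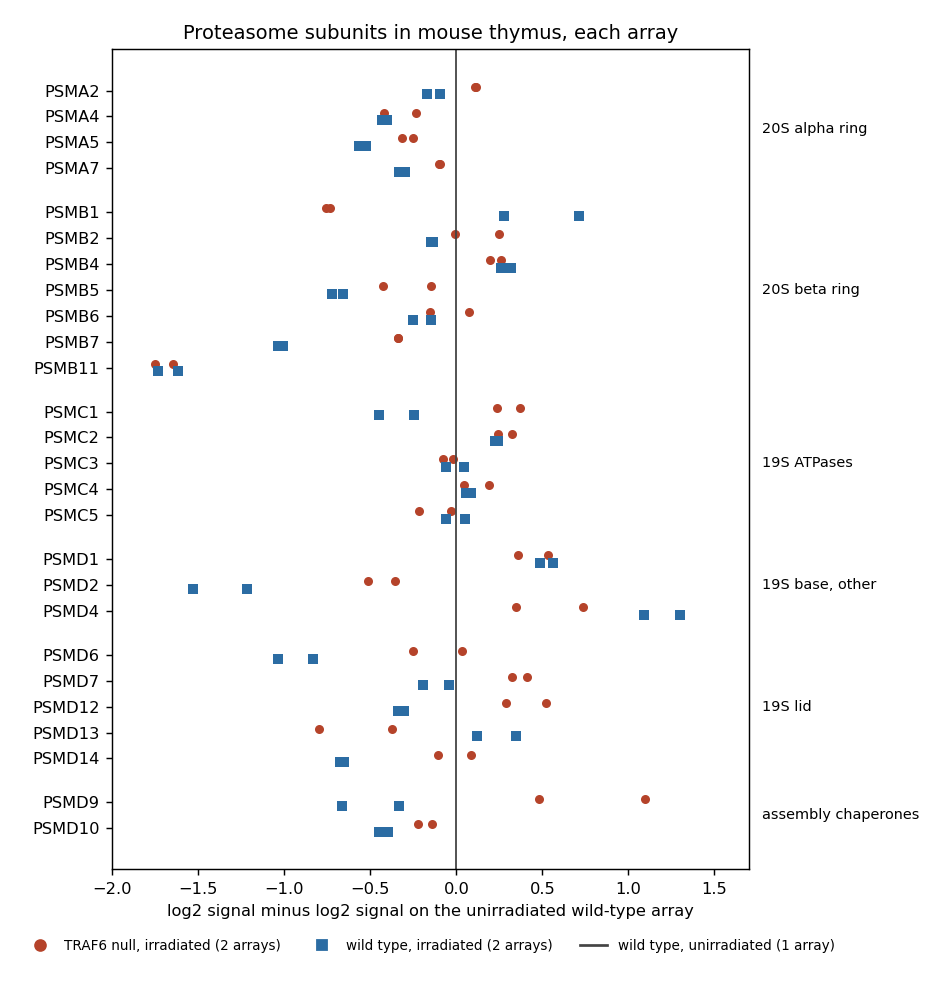
Normalized log2 signal of the 26 subunits on each irradiated array, minus that on the single unirradiated wild-type array (vertical line), by subunit role. Red circles are the 2 arrays labelled TRAF6 null and blue squares the 2 irradiated wild-type arrays. PSMB1 and PSMD13 have both circles left of both squares, and PSMB11 lies far left for all 4 arrays.

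In the outer ring of the core, no PSMA subunit passed in any comparison. PSMA2, PSMA4, PSMA5 and PSMA7 were among the brightest members, with signals of 4452 to 18908. Between the irradiated groups the range ran from 0.09 ± 0.16 SE, adjusted p = 0.677 for PSMA4 to 0.26 ± 0.15 SE, adjusted p = 0.205 for PSMA5. PSMA2 had signals of 18908 and 18442 on the arrays labelled TRAF6 null, 11422 and 11261 on irradiated wild type and 17946 without irradiation. Its groups did not overlap, yet at this brightness quantile normalization left a log2 difference of 0.24 ± 0.15 SE (adjusted p = 0.234). It passed with median scaling (0.83, adjusted p = 0.0127), the authors' scaling (0.60, adjusted p = 0.00917) and the background that limma's neqc infers by itself, below called the function's own background estimate (0.25, adjusted p = 0.037). Irradiated minus unirradiated wild type, all 4 were negative, from -0.54 ± 0.18 SE, adjusted p = 0.0712 for PSMA5 to -0.13 ± 0.18 SE, adjusted p = 0.594 for PSMA2. TRAF6 null minus unirradiated, PSMA4 was at -0.33 ± 0.19 SE, adjusted p = 0.251 and PSMA2 at 0.11 ± 0.18 SE, adjusted p = 0.669.

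In the inner ring PSMB1 was lower and PSMB7 higher on the arrays labelled TRAF6 null. PSMB1, a ring subunit without a cutting site, had signals of 2242 and 2504 on the arrays labelled TRAF6 null, 6049.9 and 4255 on irradiated wild type and 4481 without irradiation. Both arrays labelled TRAF6 null lay below the other 3. PSMB1 was 2.36-fold lower there than on the irradiated wild-type arrays (-1.24 ± 0.20 SE, adjusted p = 0.01), at 0.50 ± 0.25 SE, adjusted p = 0.174 for irradiated over unirradiated wild type and at -0.74 ± 0.25 SE, adjusted p = 0.0823 for TRAF6 null over unirradiated. Over 15 alternative settings its first difference kept its sign, from -1.46 to -1.02, and passed in 13.

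PSMB7, which carries the trypsin-like site, had signals of 3162 and 3443 on the arrays labelled TRAF6 null, 2054 and 1956 on irradiated wild type and 4642 without irradiation. The irradiated wild-type arrays were the lowest, and no group overlapped another. PSMB7 stood 1.60-fold higher with the TRAF6 null label than on irradiated wild type (0.68 ± 0.15 SE, adjusted p = 0.0196) and 2.03-fold lower on irradiated than on unirradiated wild type (-1.02 ± 0.18 SE, adjusted p = 0.015). TRAF6 null minus unirradiated it stood at -0.34 ± 0.18 SE, adjusted p = 0.208.

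PSMB5 and PSMB6 did not pass. PSMB5, with the chymotrypsin-like site, had signals of 582 and 527 on the arrays labelled TRAF6 null, 545 and 489 on irradiated wild type and 767 without irradiation. In normalized values its irradiated groups did not overlap (0.40 ± 0.17 SE, adjusted p = 0.116), and irradiated minus unirradiated wild type was -0.69 ± 0.21 SE, adjusted p = 0.0582, with TRAF6 null minus unirradiated at -0.29 ± 0.21 SE, adjusted p = 0.35. PSMB6, with the caspase-like site, gave 0.16 ± 0.17 SE, adjusted p = 0.474 between the irradiated groups, which overlapped, then -0.20 ± 0.20 SE, adjusted p = 0.475 and -0.04 ± 0.20 SE, adjusted p = 0.892 in the second and the last comparison. PSMB2 and PSMB4, which carry no cutting site, gave 0.26 and -0.06 between the irradiated groups. PSMB4 was the highest of its ring TRAF6 null minus unirradiated (0.23 ± 0.18 SE, adjusted p = 0.38).

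PSMB11, the subunit of cortical thymic epithelium, was among the dimmest members, with signals of 128 and 129.9 on the arrays labelled TRAF6 null, 144 and 135 on irradiated wild type and 234 without irradiation. All 4 irradiated arrays lay below the unirradiated one. It was 3.20-fold lower on irradiated wild type (-1.68 ± 0.19 SE, adjusted p = 0.00787) and 3.25-fold lower on the arrays labelled TRAF6 null (-1.70 ± 0.19 SE, adjusted p = 0.00948) than on the unirradiated array. The irradiated groups overlapped (-0.02 ± 0.15 SE, adjusted p = 0.906). Its detection p was 0.03205 and 0.03419 on the arrays labelled TRAF6 null, so it was a member through the wild-type arrays. Without background correction these differences were -0.83 and -0.84, and with the function's own background estimate -0.20 and -0.20, all still called. The 8 cortical epithelial markers, PSMB11 among them, summed to 25354 and 22258 on the arrays labelled TRAF6 null, 18684 and 15041 on irradiated wild type and 16649.7 without irradiation. Most of each sum was CCL25, with 17196 and 13191, 12108 and 10118, and 12816 in the same order. Of the 4 tested, 1 was higher and 1 (PSMB11) lower in each comparison with the unirradiated array. The higher gene was PRSS16 for irradiated wild type and CTSL for the TRAF6 null label, so the markers did not move as a set.

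**Figure D2:**
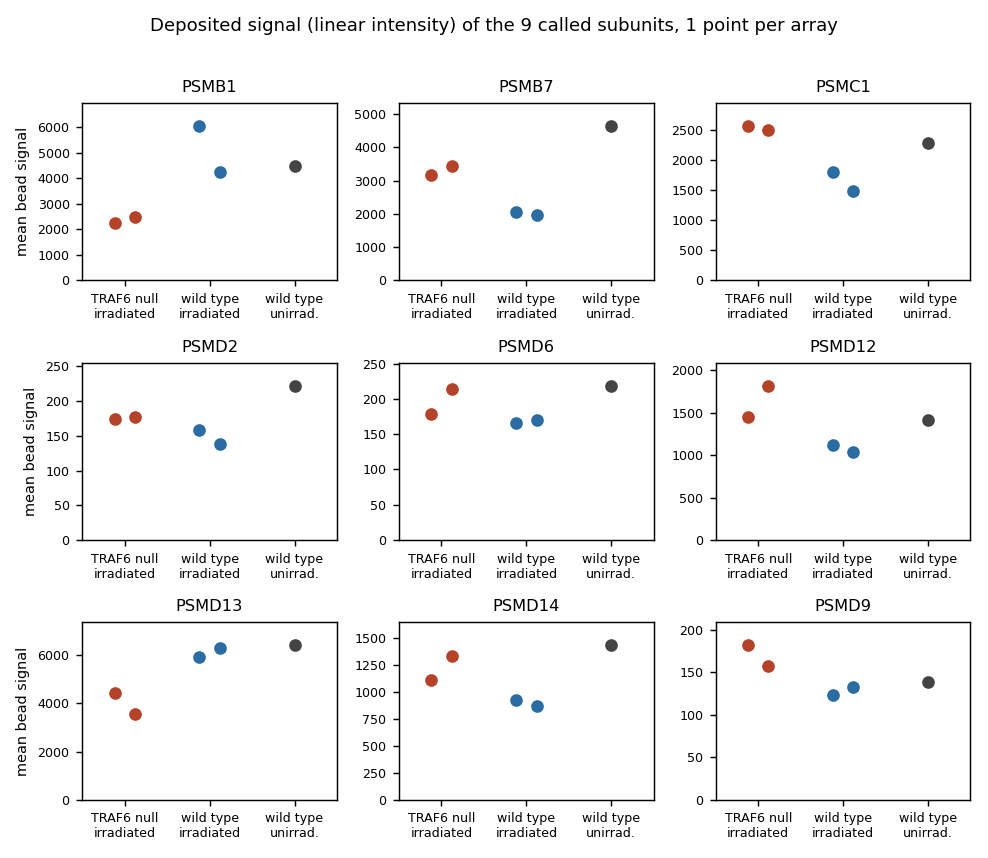
Deposited mean bead signal (linear intensity, axes from 0) of the 9 subunits called between the irradiated groups, 1 point per array, with TRAF6 null at left, irradiated wild type in the middle and the unirradiated array at right. PSMB1 and PSMD13 are lowest on the arrays labelled TRAF6 null, while PSMB7, PSMC1, PSMD12 and PSMD14 are lowest on irradiated wild type, and PSMD2, PSMD6 and PSMD9 lie between 124 and 222, close to the negative controls.

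Of the 5 ATPases of the cap, PSMC1 alone passed in the first comparison and none in the others. PSMC1 had signals of 2572 and 2503 on the arrays labelled TRAF6 null, 1806 and 1491 on irradiated wild type and 2286 without irradiation. The irradiated wild-type arrays lay below the other 3. The difference was 1.57-fold (0.65 ± 0.17 SE, adjusted p = 0.0311), with -0.35 ± 0.20 SE, adjusted p = 0.228 for irradiated over unirradiated wild type and 0.30 ± 0.20 SE, adjusted p = 0.308 for TRAF6 null over unirradiated. PSMC5 was the lowest ATPase in the first (-0.12 ± 0.16 SE, adjusted p = 0.579) and the last (-0.12 ± 0.20 SE, adjusted p = 0.665) comparison, and PSMC2 the highest in the second (0.23 ± 0.18 SE, adjusted p = 0.355). Across the 3 comparisons PSMC3, PSMC4 and PSMC5 stayed between -0.12 and 0.12.

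Among scaffold and receptor subunits of the base, PSMD2 was lower and PSMD4 higher on irradiated than on unirradiated wild type. PSMD2, a large scaffold subunit, had signals of 174 and 176 on the arrays labelled TRAF6 null, 158 and 138 on irradiated wild type and 222 without irradiation. It stood 1.92-fold higher with the TRAF6 null label than on irradiated wild type (0.94 ± 0.18 SE, adjusted p = 0.0155) and 2.59-fold lower on irradiated than on unirradiated wild type (-1.37 ± 0.22 SE, adjusted p = 0.0132), with -0.43 ± 0.22 SE, adjusted p = 0.204 in the last comparison. These folds stand on signals near the negative controls, whose 99th percentile was 122 to 129. The first call was lost with the function's own background estimate (0.09, adjusted p = 0.0833), median scaling (0.63, adjusted p = 0.0522) and the authors' scaling (0.13, adjusted p = 0.366), and the second with the authors' scaling (-0.40, adjusted p = 0.0656).

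PSMD4, a ubiquitin receptor, had signals of 11076 and 8473 on the arrays labelled TRAF6 null, 10776 and 11615 on irradiated wild type and 6728 without irradiation. The unirradiated array was the lowest. PSMD4 was 2.29-fold higher on irradiated than on unirradiated wild type (1.20 ± 0.25 SE, adjusted p = 0.0226). It fell short of the threshold between the irradiated groups (-0.65 ± 0.20 SE, adjusted p = 0.0537) and in the last comparison (0.54 ± 0.25 SE, adjusted p = 0.162). The second call was lost with median scaling (0.72, adjusted p = 0.0899) and with the function's own background estimate (1.24, adjusted p = 0.0511). PSMD1, the other large scaffold, gave -0.08 ± 0.16 SE, adjusted p = 0.703, 0.52 ± 0.19 SE, adjusted p = 0.0908 and 0.44 ± 0.19 SE, adjusted p = 0.145 in the 3 comparisons.

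Lid subunits supplied 3 of the 7 higher calls and 1 of the 2 lower ones. PSMD12, a lid scaffold, had signals of 1445 and 1818 on the arrays labelled TRAF6 null, 1122 and 1032 on irradiated wild type and 1412 without irradiation. Its irradiated groups did not overlap, at 1.66-fold (0.73 ± 0.16 SE, adjusted p = 0.0222), and it was the highest lid subunit TRAF6 null minus unirradiated (0.40 ± 0.20 SE, adjusted p = 0.188). PSMD14, the deubiquitinase that strips ubiquitin from substrates, had signals of 1105 and 1335 on the arrays labelled TRAF6 null, 922 and 864 on irradiated wild type and 1429.7 without irradiation. It stood 1.57-fold higher with the TRAF6 null label (0.65 ± 0.16 SE, adjusted p = 0.027), and irradiated minus unirradiated wild type it missed the threshold (-0.66 ± 0.19 SE, adjusted p = 0.052), with -0.01 ± 0.19 SE, adjusted p = 0.974 in the last comparison. PSMD7, its partner in the lid, gave 0.49 ± 0.16 SE, adjusted p = 0.0586 between the irradiated groups. With the authors' scaling PSMD12 (0.47, adjusted p = 0.0605) and PSMD14 (0.33, adjusted p = 0.117) no longer passed.

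PSMD6, another lid scaffold, had signals of 178 and 214 on the arrays labelled TRAF6 null, 166 and 170.4 on irradiated wild type and 219 without irradiation. It stood 1.77-fold higher with the TRAF6 null label (0.83 ± 0.18 SE, adjusted p = 0.0219) and 1.91-fold lower on irradiated than on unirradiated wild type (-0.94 ± 0.23 SE, adjusted p = 0.0323). Neither call held with the function's own background estimate (0.11, adjusted p = 0.0955, then -0.13, adjusted p = 0.11), median scaling (0.49, adjusted p = 0.091, then -0.71, adjusted p = 0.0651) or the authors' scaling (0.10, adjusted p = 0.595, then -0.20, adjusted p = 0.4). PSMD13 went the other way, with signals of 4442 and 3576 on the arrays labelled TRAF6 null, 5920.5 and 6287 on irradiated wild type and 6404 without irradiation. Both arrays labelled TRAF6 null lay below the other 3, 1.76-fold under irradiated wild type (-0.82 ± 0.21 SE, adjusted p = 0.0331). It gave 0.23 ± 0.26 SE, adjusted p = 0.512 and -0.58 ± 0.26 SE, adjusted p = 0.153 in the second and the last comparison, the highest and the lowest of the lid. Its first call was lost with median scaling (-0.52, adjusted p = 0.0961), with the function's own background estimate (-0.87, adjusted p = 0.0777) and with no detection filter (-0.82, adjusted p = 0.063).

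Among the assembly chaperones PSMD9 had signals of 182 and 157 on the arrays labelled TRAF6 null, 124 and 132 on irradiated wild type and 139 without irradiation. Both arrays labelled TRAF6 null were above the other 3. Of the 2 irradiated wild-type arrays, 1 was not above the 99th percentile of the negative controls. The fitted difference from irradiated wild type was 1.29 ± 0.27 SE (adjusted p = 0.018), and the other comparisons gave -0.50 ± 0.33 SE, adjusted p = 0.278 and 0.79 ± 0.33 SE, adjusted p = 0.132. Its signals lay near the negative controls, and the first call was lost with the function's own background estimate (0.11, adjusted p = 0.138), the authors' scaling (0.28, adjusted p = 0.113) and a least-squares background line (0.74, adjusted p = 0.0656). PSMD10 gave 0.24 ± 0.15 SE, adjusted p = 0.236, -0.42 ± 0.18 SE, adjusted p = 0.128 and -0.18 ± 0.18 SE, adjusted p = 0.493.

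**Figure D3:**
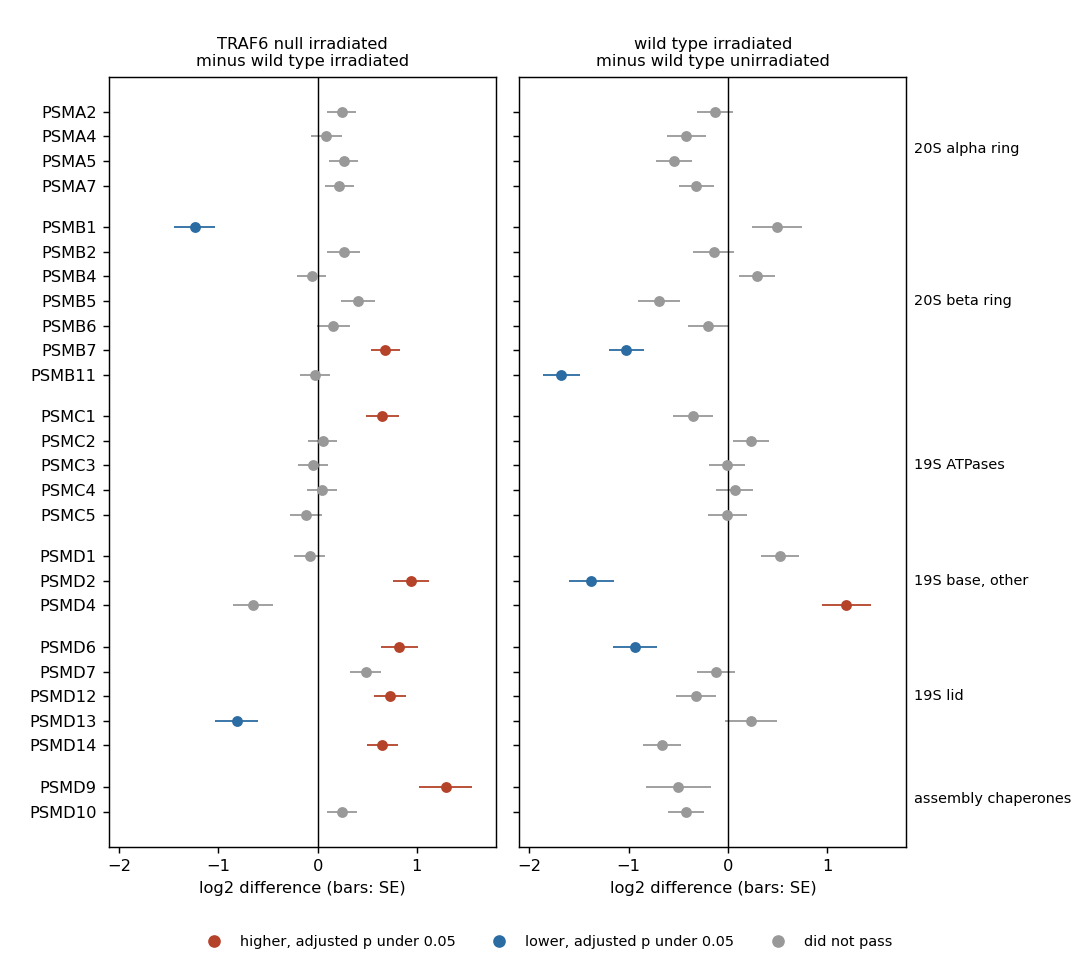
Log2 differences of the 26 subunits with their standard errors (bars), TRAF6 null minus wild type under irradiation at left and irradiated minus unirradiated wild type at right. Red marks members higher and blue members lower at an adjusted p under 0.05: 7 and 2 at left, 1 and 4 at right. Both panels use the irradiated wild-type arrays, with opposite sign.

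Genes around the proteasome gave mixed calls. The 3 immunoproteasome subunits, which replace cutting subunits after interferon, gave 0 calls between the irradiated groups. PSMB8 was lower on both kinds of irradiated thymus than on the unirradiated array (-1.52 ± 0.18 SE, adjusted p = 0.00831 for wild type, and -1.18 ± 0.18 SE, adjusted p = 0.0145 for TRAF6 null). Its signals were 1506 and 1672 on the arrays labelled TRAF6 null, 1388 and 1309.6 on irradiated wild type and 4112 without irradiation, with all 4 irradiated arrays below the unirradiated one. Of 35 partner names listed, 3 of them names of the same gene, 23 were tested, 5 of them in the NFE2L1 pathway. The 23 gave 5 higher and 7 lower between the irradiated groups, 5 and 3 in irradiated over unirradiated wild type, and 3 and 5 in TRAF6 null over unirradiated, with medians of -0.12, 0.13 and -0.07. Of all rows tested, 20.8% were higher and 22.9% lower in the first, 18.6% and 17.5% in the second, and 13.6% and 15% in the last.

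The 5 tested genes of the NFE2L1 pathway gave 1 higher and 4 lower between the irradiated groups, then 4 higher and 0 lower, then 1 and 0. NFE2L1 itself had signals of 1148 and 1793 on the arrays labelled TRAF6 null, 3065 and 3328 on irradiated wild type and 1496 without irradiation. The irradiated wild-type arrays were the highest. It was 2.40-fold lower on the arrays labelled TRAF6 null (-1.26 ± 0.23 SE, adjusted p = 0.0133) and 2.66-fold higher on irradiated than on unirradiated wild type (1.41 ± 0.28 SE, adjusted p = 0.0208). SYVN1, a ubiquitin ligase of the endoplasmic reticulum, gave -1.26 and 1.49, and MAFG, a small MAF partner of the factor, -1.10 and 1.82, all called. SEL1L, the partner of SYVN1, was higher TRAF6 null minus unirradiated (1.43 ± 0.18 SE, adjusted p = 0.0109).

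UCHL5, a deubiquitinase of the cap, had signals of 1145 and 1306 on the arrays labelled TRAF6 null, 712 and 617 on irradiated wild type and 2359.8 without irradiation. With the TRAF6 null label it was higher than on irradiated wild type (1.18 ± 0.15 SE, adjusted p = 0.00636) and irradiated wild type was lower than unirradiated (-1.92 ± 0.19 SE, adjusted p = 0.00703). The shuttle factor UBQLN4 was lower on the arrays labelled TRAF6 null between the irradiated groups (-1.56 ± 0.17 SE, adjusted p = 0.00455). PSMG1, a chaperone of core assembly, was lower on irradiated wild type (-1.54 ± 0.20 SE, adjusted p = 0.00899) and on the arrays labelled TRAF6 null (-1.22 ± 0.20 SE, adjusted p = 0.0161) than on the unirradiated array. TRAF6 null minus unirradiated, PSMF1, an inhibitor of the core (1.16), was higher and the ligase UBE3C (-1.48) was lower.

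In H1299 cells the 3 transfections were set against each other, with 1 array each, so no test was run. Differences were counted at 1.5-fold and, by a rule added after the small differences had been seen, beyond the 95% interval of the bead error, which covers the spread of beads on 1 array only. CDKN1A, a p53 target, had signals of 12992 with p53 K24R, 21027 with p53 wild type and 3369.5 with vector. KRT8 and VIM, which mark the line's epithelial and mesenchymal genes, had signals of 1429 with p53 K24R, 2523 with p53 wild type and 1537 with vector, and of 15690.4 with p53 K24R, 13267 with p53 wild type and 17835 with vector. Every member gene passed detection on all 3 arrays.

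With p53 wild type over vector, 0 members were past 1.5-fold higher and 2 lower, against 9.24% and 11.4% of the 12602 genes kept (20.7% in all). PSMC6, an ATPase, had signals of 530.1 with p53 K24R, 351 with p53 wild type and 603 with vector, a log2 difference of -0.89 ± 0.10 bead SE. PSMD5, a chaperone of the cap, had signals of 163 with p53 K24R, 142 with p53 wild type and 178 with vector (-0.74 ± 0.23 bead SE). Both were lowest with p53 wild type. PSMD9 was the highest, at 0.53 ± 0.19 bead SE and signals of 161 with p53 K24R, 186 with p53 wild type and 164 with vector. Subunit probes that failed detection had signals of 97 to 121, so the differences of PSMD5 and PSMD9 stand on signals near background. Beyond bead error, 7 members were higher and 12 lower (57.6% of the members), against 22.1% and 25% of all genes (47.1% in all). The log2 bead error depends on brightness, and these shares, here and below, were not matched for it. The members' median was -0.08, against -0.01. All 6 PSMA genes were negative, from -0.54 for PSMA3 to -0.10 for PSMA6, and 4 of them were beyond bead error.

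With p53 K24R over vector, 0 members passed 1.5-fold in either direction, against 6.83% of genes higher and 5.85% lower (12.7% in all). The differences ran from -0.33 ± 0.05 bead SE for PSMA1 to 0.50 ± 0.15 bead SE for PSMD12, whose signals were 6630.3 with p53 K24R, 4788 with p53 wild type and 4823 with vector. Beyond bead error, 7 were higher and 5 lower (36.4% of the members), against 16.7% and 19.7% of all genes (36.4% in all). The median was 0.04, against -0.01. All 8 lid genes were positive, from 0.10 to 0.50, 5 of them beyond bead error, while 6 of 7 PSMB genes were negative, 4 of them beyond it. PSMB5, PSMB6 and PSMB7 gave -0.18, -0.13 and -0.18.

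With p53 K24R over p53 wild type, 3 members were past 1.5-fold higher and 0 lower, against 9.96% and 8.18% of genes (18.1% in all). They were PSMA3, with signals of 517 with p53 K24R, 366 with p53 wild type and 514 with vector (0.60 ± 0.09 bead SE), PSMC6 (0.72 ± 0.11 bead SE) and PSMD1. PSMD1 had signals of 653 with p53 K24R, 422 with p53 wild type and 549.5 with vector (0.74 ± 0.08 bead SE), the highest of the members. PSMD9, with signals near background, was the lowest (-0.57 ± 0.18 bead SE). Beyond bead error, 13 were higher and 10 lower (69.7% of the members), against 24.2% and 23.6% of all genes (47.8% in all). The median was 0.00, against 0.02. PSMB genes gave 0 positive values and 6 negative ones, with PSMB2 at 0.00, and 5 were beyond bead error, PSMB7 the lowest at -0.31 ± 0.07 bead SE with signals of 9588 with p53 K24R, 12185 with p53 wild type and 11045 with vector. PSMD14, the deubiquitinase, was at 0.45 ± 0.07 bead SE, and the receptor PSMD4 at -0.38 ± 0.08 bead SE.

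Of 11 genes with several passing probes, the probes had the same sign for 8, 9 and 8 in p53 wild type over vector, K24R over vector and K24R over p53 wild type. The widest gap between probes of a gene was 0.50, for PSMD10 in K24R over p53 wild type. Around the proteasome, 30 partner genes gave 1 higher and 3 lower past 1.5-fold with p53 wild type over vector, 1 and 0 with K24R over vector, and 7 and 0 with K24R over p53 wild type. Of all genes kept, 9.24% were higher and 11.4% lower past 1.5-fold in the first, 6.83% and 5.85% in the second, and 9.96% and 8.18% in the third. The 3 immunoproteasome subunits gave 0 past it in the first and second, and PSMB9 alone, lower, in K24R over p53 wild type. The comparisons share arrays. Without background correction 4%, 1.48% and 2.94% of genes were past 1.5-fold, with 1, 0 and 1 members.

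**Figure D4:**
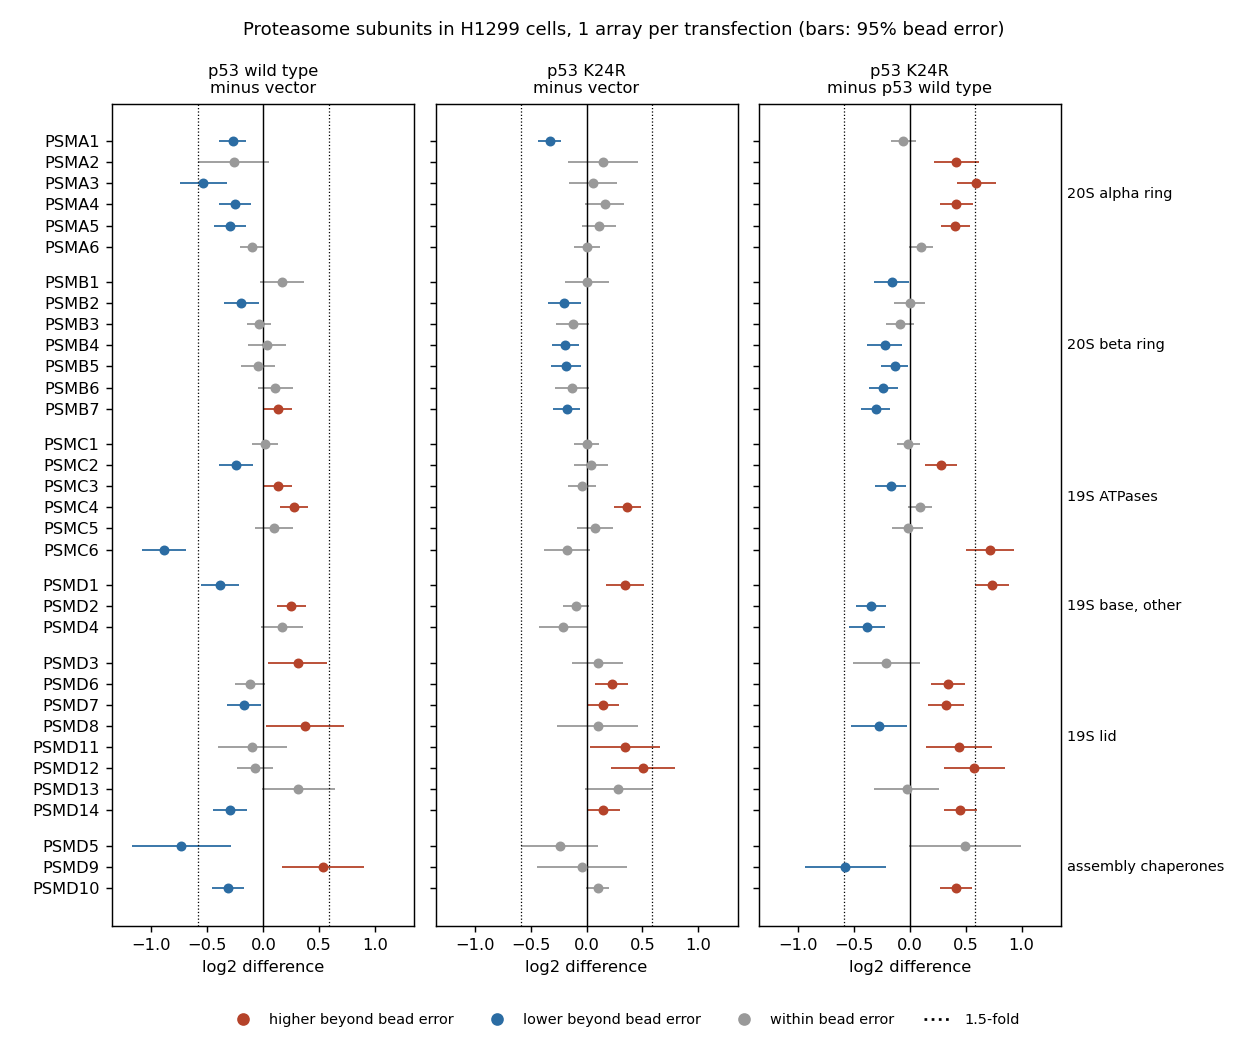
Log2 differences of the 33 member genes between H1299 transfections, 1 array each, with the 95% interval of the bead error as bars and 1.5-fold as dotted lines. PSMC6 and PSMD5 lie past the line at left, no member does in the middle, and PSMA3, PSMC6 and PSMD1 do at right.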

How the data were processed

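RNA was extracted with Trizol, labelled with biotin and hybridised to Illumina bead arrays, per the labels' protocols. Per the file headers, the deposited values are mean bead signals (linear intensity), bead standard errors, bead numbers and detection p-values, per probe in human and 1 row per gene in mouse, where the values read as averages over a gene's probes. The authors' processed table held the same intensities times 1 constant per array, and how the constants were chosen is not given in the sources used here.

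Mouse background was corrected by normexp with negative controls estimated from the detection p-values (a robust line), an offset of 16, quantile normalization and log2, and human background with the inference of neqc (limma 3.58.1, R 4.3.3, MASS 7.3.60.0.1). Rows with a detection p under 0.01 on 2 of 5 mouse arrays were tested by limma (lmFit, eBayes) over all 5 arrays, with Benjamini-Hochberg adjustment over 11563 rows and a threshold of 0.05. In H1299, a gene was its brightest passing probe. Array number limits the precision. The scripts were tested on simulated data, where a difference larger than nearly all of the members' was not recovered when few rows differed and a still larger one, set after that, mostly was, so a member that missed the threshold is not shown to be the same in both groups.

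Text names, per comparison, the highest and lowest member of each role, called members, PSMB5, PSMB6, PSMB7, PSMB11, PSMD4 and PSMD14, and the 6 called partner genes of largest difference. Of the results these rules name, 1 partner gene is not reported here. Members, lists and motifs were chosen with earlier results of these data known. After values were seen, 3 ways of estimating the negative controls were tried (the first was replaced after its calls had been seen), 9 motifs were counted with 3 shown, the ETS-type one kept knowing its count, and the bead error rule was added. Same-numbered arrays did not deviate together (r = 0.0319).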

Additional observations from a re-analysis of the deposited data

How the results depend on the processing

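Settings were changed one at a time, except that the authors' scaled table differs in background, normalization and scaling together, and no call changed direction. Percentages in parentheses are the share of all rows or genes called. Between the irradiated groups, 9 members were called (43.7%), against 5 with the authors' scaled table (48.8%) and 0 to 11 when arrays were left out singly (0 without either irradiated wild-type array, 9.88% and 5.34%, and 11 and 10 without either TRAF6 null array, 52.7% and 52.2%). Of the 9 calls, 5 were kept with the function's own background estimate, 6 with median scaling and 4 with the authors' scaling, so similar counts hold partly different members. The members' share exceeded that of all rows with the function's own background estimate (10 members, 25.5%). It was also just above with detection required on all 5 arrays, at 45.8% of 24 members against 44.8% of all rows. With no detection filter (9 members, 17.4%) it was above as well. That setting tested all 30854 rows, undetected ones included, while the members were chosen by detection, so its excess says nothing of the members. The members' median of 0.23 was 0.109 with the function's own background estimate, 0.473 with median scaling and 0.152 with the authors' scaling. For irradiated over unirradiated wild type, 5 calls (36.2%) became 8 with the own estimate (23.9%, so that the members' 30.8% lay above all rows, against 19.2% below them before), 9 without background correction (35.7%), 8 with an offset of 50 (36.9%), 8 with a least-squares background line over all detection levels (34.3%, an estimate replaced after its calls had been seen) and 0 to 9 with arrays left out (0% to 55.2%). The median of -0.257 was then -0.151 with the own estimate, -0.186 without correction, -0.473 with median scaling and -0.191 with that line. Of the 5 calls, 3 were kept with the own estimate, 3 with median scaling and 3 with the authors' scaling. For TRAF6 null over unirradiated, 1 call (28.6%) became 2 with the own estimate (15.8%), 0 with detection required on all 5 arrays (30.2%, 24 members tested, PSMB11 not among them, 1 with an unadjusted p under 0.05) and 1 to 3 with arrays left out (7.63% to 43.5%). Fits with a replicate block called 9, 5 and 1 members, as did those without it, and shared numbers do not show pairing. Past 1.5-fold, the 2 members of p53 wild type over vector (20.7%) became 1 without correction (4%), 1 with the authors' scaling (3.65%), 1 with an offset of 50 (8.86%) and 0 at 2-fold (5.1%). The 3 of K24R over p53 wild type (18.1%) became 1 without correction (2.94%), 6 with median scaling (19.8%), 1 with the authors' scaling (2.96%) and 0 at 2-fold (2.86%). The causes were not tested. For single mouse members, 1006 alternative values kept their side of the threshold, 58 newly passed and 48 no longer did. Fits without an array kept the normalized values of all 5 and assume that a lone array varies like the others. Members near the negative controls (PSMD2, PSMD6, PSMD9, PSMB11) are limited by signal over background, as are PSMD5 and PSMD9 in H1299.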
